A study of Mus musculus with 2 samples.

Results

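The genes described here are 9 immediate early and AP-1 genes, Fos, Fosb, Jun, Junb, Jund, Egr1, Nr4a1, Ier2 and Dusp1, chosen by name from the 31053 mouse genes of a single-cell RNA sequencing library. The library came from T cells sorted by TCR-β from intradermal tumors of 2 kinds in mice, B16, a mouse melanoma line, and B16–IL-33, the same line made to overexpress secreted IL-33. Tumors in C57BL/6J mice were taken on day 9, digested with DNase and Liberase TL and enriched for CD45+ cells. Cells were then labelled with hashtag antibodies, DNA-barcoded antibodies that mark the tumor of origin, and pooled into 1 gene expression, 1 hashtag and 1 TCR library. All cells went through the same digestion, which these genes are known to respond to, so its part in their levels cannot be told apart. Each cell class or tumor is therefore 1 sample, no test across animals was possible, and every 95% interval below covers counting error only.

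Immediate early genes are switched on within minutes of a signal, without new protein synthesis, by transcription factors that already sit in the cell. Fos and Fosb encode proteins that pair with Jun, JunB or JunD to form AP-1, a dimer that binds short DNA sites in the promoters and enhancers of many genes, and in T cells partners with NFAT downstream of the antigen receptor. Egr1 and Nr4a1 encode transcription factors that follow antigen receptor signals, Ier2 encodes a small nuclear protein of the same early wave, and Dusp1 encodes a phosphatase that dephosphorylates p38, JNK and ERK and so limits the response.

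The deposited counts held 14035 barcodes, 11756 of them also in the hashtag library and 6665 in the TCR table, of which 9078 had 200 to 2500 detected genes and under 5% mitochondrial UMIs (unique molecular identifiers, 1 per captured RNA molecule). Cells were classed by their own UMIs into 1260 CD8+ T cells, 2609 Treg, 1769 Tconv, 81 NKT cells and 129 myeloid cells, with 3270 cells in no class. Levels are given as CPM, UMIs of the gene per 1000000 UMIs of the class. Those of the gating genes follow from the gates and are no check of the classes. Foxp3 stood at 717 CPM in Treg and 21.2 in CD8+ T cells, and Cd8a at 490.2 in CD8+ T cells. Zbtb16 stood at 348 CPM in the NKT class and Csf1r at 429.9 in the myeloid class, where Cd3e was at 0. Outside the gates, Ikzf2, Il2ra, Ctla4 and Tnfrsf18 stood at 859, 452, 1187 and 1126 CPM in Treg, against 280, 112, 421 and 520 in Tconv. Of the 27 NKT cells with a productive alpha chain, 16 carried the invariant TRAV11–TRAJ18 rearrangement, as did 17 of 802 Tconv cells, and 21 cells were counted as both NKT and Tconv. Shares of cells with a UMI leave out cells under 1500 UMIs, 109 CD8+ T cells, 454 Treg, 322 Tconv, 2 NKT and 11 myeloid cells. They are given after each remaining cell was thinned at random to 1500 UMIs. Co-detection, spread and correlation use the same thinned cells. In such cells Lyz2, a myeloid gene that T cells should lack, was found in 82.2% of myeloid cells and in 2.53 to 3.39% of the 4 T cell classes, which gauges free RNA. No class here should lack the 9 genes themselves, so free RNA could not be gauged for them directly. Summed over 11 genes, myeloid markers stood at 591 CPM in CD8+ T cells, 719 in Treg and 587 in Tconv. Without cells holding 5 or more UMIs of these markers, the ratio of the 9 genes summed was 0.736 between CD8+ T cells and Treg, 1.07 between Tconv and Treg and 1.45 between Tconv and CD8+ T cells, beside 0.751, 1.09 and 1.45 with them.

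RefSeq promoter sequences were on hand for 7 of the 9 genes, and the stretches before the RefSeq start are shown for the members whose window holds a site of the AP-1 or CREB type, because AP-1 and the related CREB and ATF proteins bind such sites in the promoters of immediate early genes themselves. Sequences are written 5′ to 3′ on the strand of the gene in build GRCm38.p6, and capitals mark the matches. The Fos stretch lies at chr12:85473640-85473889 on the plus strand, just before the gene and outside any annotated gene. The Fosb stretch is chr7:19310052-19310295 on the minus strand, just before the annotated gene, with 6 exonic bases left out. The Jun stretch is chr4:95052223-95052472 on the minus strand and falls in an intron of the antisense gene Junos. The Nr4a1 stretch is chr15:101266596-101266845 on the plus strand, in an intron of the longest Nr4a1 transcript and just before the start of shorter ones. The Dusp1 stretch is chr17:26508520-26508722 on the minus strand, within the Dusp1 gene as GENCODE draws it but outside its exons, 47 exonic bases nearest the start being left out.
Fos: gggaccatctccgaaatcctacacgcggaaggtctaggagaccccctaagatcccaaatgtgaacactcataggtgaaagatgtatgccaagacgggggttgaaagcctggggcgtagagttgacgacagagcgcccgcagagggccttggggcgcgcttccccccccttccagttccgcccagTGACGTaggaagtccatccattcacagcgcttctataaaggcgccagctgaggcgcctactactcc
Fosb: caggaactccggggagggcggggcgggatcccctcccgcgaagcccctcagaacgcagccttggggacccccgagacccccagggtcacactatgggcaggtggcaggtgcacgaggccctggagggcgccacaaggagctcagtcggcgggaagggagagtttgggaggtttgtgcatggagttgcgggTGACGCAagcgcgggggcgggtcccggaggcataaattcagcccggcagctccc
Jun: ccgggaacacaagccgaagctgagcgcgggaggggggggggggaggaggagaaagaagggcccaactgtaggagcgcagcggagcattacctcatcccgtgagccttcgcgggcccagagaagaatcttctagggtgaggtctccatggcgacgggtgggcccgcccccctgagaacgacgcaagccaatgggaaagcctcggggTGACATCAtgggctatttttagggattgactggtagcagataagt
Nr4a1: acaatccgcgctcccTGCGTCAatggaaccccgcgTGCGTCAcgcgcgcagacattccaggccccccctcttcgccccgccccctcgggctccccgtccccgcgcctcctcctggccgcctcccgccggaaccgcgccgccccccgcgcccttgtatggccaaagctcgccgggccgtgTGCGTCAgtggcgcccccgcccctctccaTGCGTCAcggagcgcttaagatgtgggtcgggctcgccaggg
Dusp1: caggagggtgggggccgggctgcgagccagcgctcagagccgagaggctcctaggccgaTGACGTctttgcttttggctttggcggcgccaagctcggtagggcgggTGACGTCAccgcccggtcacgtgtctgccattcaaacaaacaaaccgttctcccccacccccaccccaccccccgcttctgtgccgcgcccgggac

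Within the 250 bases before the RefSeq start, read on both strands, the full cAMP response element TGACGTCA was found in the Dusp1 promoter, 143 to 136 bases before the start, and in 1.55% of all 32851 promoters of that length. TGACGCA was found in Fosb, 60 to 54 bases before the start, and at 4 places in Nr4a1, all read on the opposite strand, against 1.75% of all promoters. For Jund, whose window held none of the sites searched, the RefSeq start lies 1210 bases before the GENCODE start, so that the bases next to the GENCODE start were not searched. The AP-1 site TGACTCA was in none of the 7 windows and in 4.46% of all promoters. The Egr site GCGTGGGCG was also in none, against 0.536% of all, as was the serum response element in its core form, against 1.47%. Further searches were made after the sequences were seen. The shorter core TGACGT was found in Fos, 66 to 61 bases before the start, and in Dusp1, against 6.47% of all promoters. In Dusp1 it lay within the full element and also apart from it, 191 to 186 bases before the start. TGACATCA was found in Jun, 45 to 38 bases before the start, against 2.93% of all promoters. These matches describe the letters in the windows and are no measure of binding. Bases further upstream than 250 were not searched in any member, Fos included. Absence from a window is therefore not absence from the promoter.

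The 9 genes together took 3638 (3586 to 3691) CPM in CD8+ T cells, 4844 (4797 to 4892) in Treg, 5265 (5202 to 5329) in Tconv, 6353 (6059.9 to 6656) in NKT cells and 6996 (6794 to 7203) in myeloid cells. This order, CD8+ T cells lowest and myeloid cells highest, left no neighbouring counting intervals that overlap. Such intervals leave out the spread between cells and do not settle the order. Over thinned cells the variance of the summed UMIs was 5.55 times their mean in CD8+ T cells and 7.48 times in myeloid cells. Single members did not all follow the order, and the plot of member levels by class shows where they parted.

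**Figure D1:**
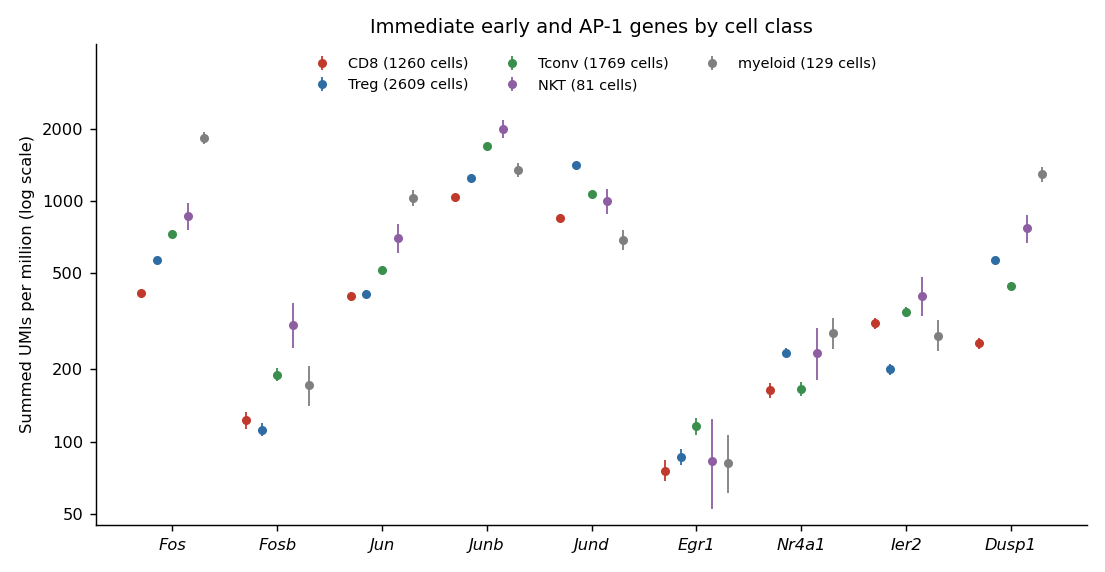
Summed CPM of each of the 9 genes (log axis) in the 5 cell classes, with 95% counting intervals. Fos and Dusp1 are highest in the 129 myeloid cells (1829 and 1291 CPM), whereas Jund is highest in Treg (1414 CPM) and lowest in myeloid cells (689 CPM).

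Among the Fos genes, Fos stood at 415 CPM in CD8+ T cells, 571 in Treg, 732 in Tconv, 866 in NKT cells and 1829 in myeloid cells. Its share of thinned cells had the same order, from 34.8% (32.1 to 37.7%) of CD8+ T cells to 75.4% (66.6 to 82.9%) of myeloid cells. Fosb, whose protein pairs with the same Jun partners, was at 123, 112, 189.8, 305 and 171 CPM in that order of classes. Fosb was thus highest in NKT cells, from 85 UMIs, and its levels in CD8+ T cells and Treg had overlapping intervals.

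Among the Jun genes, Jun was at 402 CPM in CD8+ T cells, 411 in Treg, 517 in Tconv, 701 in NKT cells and 1034 in myeloid cells, with the first 2 not told apart by their intervals. Junb, whose protein pairs with both Fos and BATF in T cells, was at 1042, 1246, 1687, 1994 and 1342 CPM, highest in NKT cells and next in Tconv. Jund ran another way: 1414 (1388 to 1439.7) CPM in Treg, 1070.2 in Tconv, 999 in NKT cells, 853 in CD8+ T cells and 689 (626 to 756) in myeloid cells. JunD is known as the more constitutive Jun protein, and Jund was found in 78.2% (76.4 to 79.9%) of thinned Treg, 70.6% of Tconv and 63.6% of CD8+ T cells.

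Of the remaining nuclear regulators, Egr1 was at 75.6 CPM in CD8+ T cells, 86.3 in Treg, 116 in Tconv, 82.6 in NKT cells and 81.7 in myeloid cells, the last 2 from 23 and 53 UMIs and with wide intervals. Nr4a1 was at 163 and 166 CPM in CD8+ T cells and Tconv, and at 234, 234 and 282 in Treg, NKT and myeloid cells. Ier2 was lowest in Treg, at 199 (189.8 to 209) CPM, against 310.1 in CD8+ T cells, 345 in Tconv, 402 in NKT cells and 276 in myeloid cells. Dusp1, the phosphatase, ran from 256 (243 to 271) CPM in CD8+ T cells over 443 in Tconv, 569.8 in Treg and 769 in NKT cells to 1291 (1205 to 1382) in myeloid cells. Its share of thinned cells was 26.0% in CD8+ T cells, 37.4% in Tconv, 47.5% in Treg and 66.1% in myeloid cells.

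CD8+ T cells held less of the 9 genes together than Treg, with a CPM ratio of 0.751 (0.738 to 0.764), but Ier2 stood out in the opposite direction. Ier2 was the member at least 1.5-fold higher in CD8+ T cells, with a ratio of 1.56 (1.45 to 1.67), where 7.16% of the 9288 genes with at least 50 UMIs were that much higher. Dusp1, at 0.45 (0.423 to 0.478), and Jund, at 0.603 (0.582 to 0.625), were at least 1.5-fold lower, as were 22.5% of all genes, so that 2 of 9 members is close to the background. The median ratio was 0.836 over the members and 0.862 over all genes tested. Nr4a1 had a ratio of 0.697, Fos 0.726, Junb 0.836 and Egr1 0.876, while the intervals of Jun, 0.977 (0.924 to 1.03), and Fosb, 1.09 (0.986 to 1.21), held 1. Depth differed between the classes, with medians of 3462.5 UMIs per CD8+ T cell and 2780 per Treg. Among cells with 2000 to 4000 UMIs, 518 CD8+ T cells and 1134 Treg, the ratio was 1.93 (1.73 to 2.15) for Ier2 and 0.442 (0.396 to 0.491) for Dusp1, while Jund, at 0.672 (0.634 to 0.711), moved just inside 1.5-fold. Within that window Jun, at 1.23 (1.12 to 1.34), and Fosb, at 1.42 (1.20 to 1.67), were higher in CD8+ T cells, with intervals that no longer held 1. Fos had a ratio of 0.976 (0.901 to 1.06) there and all 9 genes 0.885 (0.861 to 0.910).

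Tconv were higher than Treg in 6 members and lower in 3, and the sum of the 9 had a ratio of 1.09 (1.07 to 1.10). Ier2, at 1.73 (1.62 to 1.85), and Fosb, at 1.69 (1.55 to 1.86), were at least 1.5-fold higher in Tconv, as were 5.82% of 9280 genes. Junb 1.35, Egr1 1.34, Fos 1.28 and Jun 1.26 were higher by less. Nr4a1, at 0.707 (0.651 to 0.768), Jund, at 0.757 (0.733 to 0.782), and Dusp1, at 0.778 (0.739 to 0.818), were lower in Tconv, none by 1.5-fold, where 12.6% of genes were that much lower. Among cells with 2000 to 4000 UMIs the ratios were 1.75 for Ier2, 1.86 for Fosb, 0.598 (0.528 to 0.675) for Nr4a1, 0.718 for Jund and 0.731 for Dusp1, so that Nr4a1 moved past 1.5-fold.

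Against CD8+ T cells, Tconv had higher levels of 5 members by at least 1.5-fold, Fos (1.77), Dusp1 (1.73), Junb (1.62), Fosb (1.55) and Egr1 (1.53), where 12.0% of 8652 genes were. Among cells with 2000 to 4000 UMIs Dusp1 alone of these 5 stayed past 1.5-fold, at 1.66 (1.48 to 1.86), with Junb at 1.44, Fosb at 1.31, Fos at 1.29 and Egr1 at 1.25. Nr4a1 had a ratio of 1.02 (0.921 to 1.12) over all cells and 0.711 (0.612 to 0.826) within the window. The 3 comparisons share their cells and are not independent of each other.

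**Figure D2:**
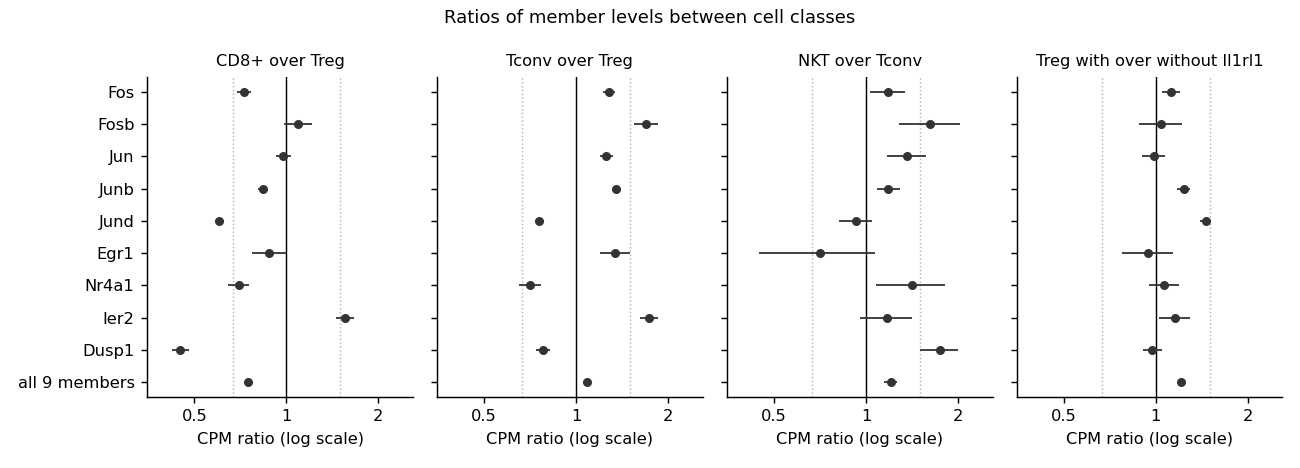
Ratio of CPM between pairs of cell classes for each of the 9 genes and their sum (log axis, 95% counting intervals); dotted lines mark 1.5-fold either way. Ier2 lies to the right in both panels against Treg (1.56 and 1.73) and Jund to the left (0.603 and 0.757), while Jund is the largest ratio between Treg with and without Il1rl1 (1.46).

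Invariant NKT cells are rare and carry a semi-invariant receptor for lipid antigens. Its alpha chain was found in 16 of the 27 cells of the NKT class with a productive alpha chain. The NKT class, gated on Zbtb16, had 1.21 (1.15 to 1.26) times the level of the 9 genes in Tconv without Zbtb16. Dusp1, at 1.74 (1.51 to 2.01), and Fosb, at 1.62 (1.28 to 2.03), were at least 1.5-fold higher, as were 10.5% of 7200 genes. Jun had a ratio of 1.36 and Nr4a1 of 1.41, whereas the intervals of Jund, 0.925 (0.817 to 1.04), Egr1, 0.709 (0.446 to 1.07), and Ier2, 1.17 (0.956 to 1.42), held 1. The 62 cells with the invariant alpha chain, chosen on the TCR alone, held 1010.1 (878 to 1157) CPM of Dusp1 and 285 (217 to 368) CPM of Fosb. Their Nr4a1 level, 96.7 (59.0 to 149) CPM, was under that of the Zbtb16-gated cells, 234 (180.3 to 298). With no upper limit on detected genes, the summed ratio of NKT to Tconv was 1.04, and that of Fos turned to 0.962.

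Myeloid cells, carried over in a sort for T cells, had 1.52 (1.47 to 1.56) times the summed level of T cells. The excess lay in Fos, at 3.24 (3.05 to 3.44), Dusp1, at 2.90 (2.70 to 3.12), and Jun, at 2.38 (2.20 to 2.57), where 16.9% of 9960 genes were at least 1.5-fold higher. Jund, at 0.591 (0.537 to 0.649), was the member at least 1.5-fold lower, as were 45.5% of genes. Nr4a1 had 1.45 and Fosb 1.26, and the intervals of Junb, 1.02 (0.955 to 1.09), Ier2, 1.02 (0.877 to 1.19), and Egr1, 0.894 (0.667 to 1.17), held 1. These cells were deeper, with a median of 4863 UMIs, and in the 29 of them with 2000 to 4000 UMIs the ratio was 4.64 (4.09 to 5.25) for Fos and 3.38 (2.84 to 3.98) for Dusp1. Nr4a1, at 3.0 (2.28 to 3.89), was past 1.5-fold there and Ier2 had 1.44 (1.02 to 1.96), whereas Jund, at 0.866 (0.705 to 1.05), was no longer 1.5-fold lower and its interval held 1.

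Il1rl1 encodes ST2, the receptor of IL-33, and 504 Treg had a UMI of it. Treg with Il1rl1 held more Jund than the other 2105, 1890.3 (1824 to 1958) against 1296 (1269 to 1324) CPM, a ratio of 1.46 (1.40 to 1.52). Junb followed, at 1469 against 1191 CPM and a ratio of 1.23 (1.18 to 1.29). Fos 1.12 and Ier2 1.16 were higher by less, and the intervals of the other 5 members held 1. No member reached 1.5-fold in either direction, where 11.5% of 8380 genes did, and the summed ratio was 1.21 (1.18 to 1.24). Depth was alike in the 2 groups, with medians of 2850 and 2772 UMIs, and among cells with 2000 to 4000 UMIs the ratio of Jund was 1.44 (1.35 to 1.53). Heat shock genes, summed over 8 genes, moved with it, at 6802 and 5776 CPM, and their part in the result was not tested. Both tumors were pooled in this comparison. By hashtag, 13 Treg with Il1rl1 came from B16–IL-33 and 12 from B16, against 42 and 233 without it. The part of the tumor in the difference by Il1rl1 was not tested. A Treg without a UMI of Il1rl1 may still hold the transcript.

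Hashtags gave a tumor to 939 of the 8946 kept cells found in the hashtag library, and 89.3% of such Treg rest on exactly 1 tag UMI. Within Treg, 55 cells carried a B16IL33 tag and 245 a B16 tag. Jund was 1822 (1631 to 2029.7) CPM in the former and 1009.7 (947 to 1076) in the latter, a ratio of 1.80 (1.59 to 2.05). Nr4a1 was 243 (177 to 326) against 124 (103 to 149) CPM, a ratio of 1.95 (1.35 to 2.79) from 44 and 117 UMIs. These 2 members were at least 1.5-fold higher by tag, where 9.94% of 3019 genes were, and the sum had a ratio of 1.33 (1.24 to 1.43).

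Each tumor had 2 tags, numbered 1 and 2, and what the number stands for is not given in the sources used here. Jund in Treg was 1021 (909.5 to 1142) CPM with B16_1, 1014 (936 to 1097) with B16_2, 2250.2 (1854 to 2705) with B16IL33_1 and 1658 (1445 to 1894) with B16IL33_2. Both IL-33 tags thus lay above both B16 tags, and the B16 tags were alike. The ratio of Jund between the tumors was 2.20 (1.76 to 2.74) with tags numbered 1 alone and 1.63 (1.39 to 1.91) with tags numbered 2 alone. Nr4a1 in Treg was 154 (113 to 205), 109 (84.5 to 138), 159 (68.8 to 314) and 275 (193 to 381) CPM over the tags in the same order. Its ratio was 1.03 (0.422 to 2.21) with tags numbered 1 alone and 2.52 (1.63 to 3.84) with tags numbered 2 alone, so that its difference by tag rests on 1 tag of the IL-33 tumor. In CD8+ T cells the 4 tags held 645, 599.8, 839 and 1200.0 CPM of Jund, and in Tconv 998, 794, 1441 and 2464. The order of the tumors was the same in the 3 lineages, from as few as 33 UMIs, with ratios of 1.66 (1.29 to 2.13) in CD8+ T cells and 2.21 (1.73 to 2.79) in Tconv.

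Fos did not order the tags by tumor in every lineage. In Treg it was 1001, 439, 518 and 939.7 CPM over the tags in the same order, so that the B16 tags enclosed both IL-33 tags. In CD8+ T cells it was 579, 363, 216 and 141 CPM, and in Tconv 928, 575, 1397 and 511. The IL-33 tags were thus lowest in CD8+ T cells and at both ends in Tconv.

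Jund also differed by tag where the cells with an Il1rl1 UMI were left out, with a ratio of 1.72 (1.48 to 1.98) in Treg without Il1rl1. Over all tagged T cells the ratio was 1.83 (1.65 to 2.02), and 1.97 (1.68 to 2.31) among those with 2000 to 4000 UMIs. Heat shock genes were also higher with the IL-33 tags, at 7802 against 4508 CPM in Treg, 6850 against 5459 in CD8+ T cells and 7858 against 4698 in Tconv, and their part in the Jund difference was not tested.

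The other members had no common direction by tag. In CD8+ T cells, Fos was 178 against 427 CPM, a ratio of 0.417 (0.229 to 0.707) from 15 UMIs in 19 cells, and Dusp1 had 0.299 (0.126 to 0.607) from 8 UMIs. Fosb, at 0.489 (0.152 to 1.22), made the third of 8 members at least 1.5-fold lower, where 12.6% of 1157 genes were, and Jund was the member that much higher, where 9.16% were. Among the 9 and 42 CD8+ T cells with 2000 to 4000 UMIs, Dusp1 had 0.727 (0.277 to 1.62) and was no longer past 1.5-fold, Fos had 0.531 (0.246 to 1.02), and the sum had 1.10 (0.894 to 1.34). In Tconv, Jund and Junb, at 1.90 (1.55 to 2.32), were at least 1.5-fold higher, where 10.7% of 1258 genes were. Ier2 and Egr1 had ratios of 0.464 (0.167 to 1.04) and 0.202 (0.00501 to 1.18) there, from 6 and 1 UMIs in 17 cells. These 2 of 9 members were at least 1.5-fold lower, where 22.3% of the genes were, so that their share is close to the background.

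The 2 tags of the B16 tumor also differed from each other in several of these genes. In Treg, Fos was 1001 (891 to 1121) CPM with B16_1 and 439 (389 to 495) with B16_2, a ratio of 2.28 (1.93 to 2.69), and Jun had a ratio of 1.79 (1.45 to 2.20), both past 1.5-fold where 6.11% of 2487 genes were higher. In Tconv, Fos 1.62, Junb 1.64 and Dusp1 2.02 were at least 1.5-fold higher with B16_1, against 4.44% of 1125 genes. In CD8+ T cells, 6 of 8 members tested were, Nr4a1 3.02, Ier2 2.06, Jun 1.93, Dusp1 1.80, Fos 1.60 and Junb 1.51, against 8.30% of 940 genes, and Fosb had 0.660 (0.305 to 1.31). The sum of the 9 had ratios of 1.55 (1.39 to 1.73), 1.42 (1.33 to 1.52) and 1.51 (1.39 to 1.65) in CD8+ T cells, Treg and Tconv, whereas Jund had 1.07 (0.813 to 1.41), 1.01 (0.875 to 1.16) and 1.26 (1.03 to 1.54). Myeloid markers, summed over 11 genes, moved with the tag in Treg, at 2691 CPM with B16_1, 446 with B16_2, 239 with B16IL33_1 and 5050 with B16IL33_2. Without the cells holding 5 or more UMIs of those markers, the B16_1 to B16_2 ratio of Fos in Treg was 1.83 (1.51 to 2.22), that of the sum 1.46 (1.36 to 1.57), and the ratio of Jund between the tumors 1.89 (1.66 to 2.16). Several of these differences were smaller among cells with 2000 to 4000 UMIs. Between the B16 tags, Fos had 1.38 (0.995 to 1.91), Jun 1.38 (0.928 to 2.04) and the sum 1.24 (1.11 to 1.40) in 33 and 66 such Treg, so that neither member was past 1.5-fold. In 41 and 39 such Tconv, Fos had 1.05 (0.765 to 1.45), while Junb 1.61 and Dusp1 2.34 stayed past 1.5-fold. In 15 and 26 such CD8+ T cells, Ier2, at 1.26 (0.666 to 2.34), and Jun, at 1.32 (0.664 to 2.56), were no longer past 1.5-fold, and Nr4a1 had 14.9 (3.50 to 133). Between the tumors, Fos had 1.46 (1.04 to 2.03) in 22 and 100 Treg with 2000 to 4000 UMIs.

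**Figure D3:**
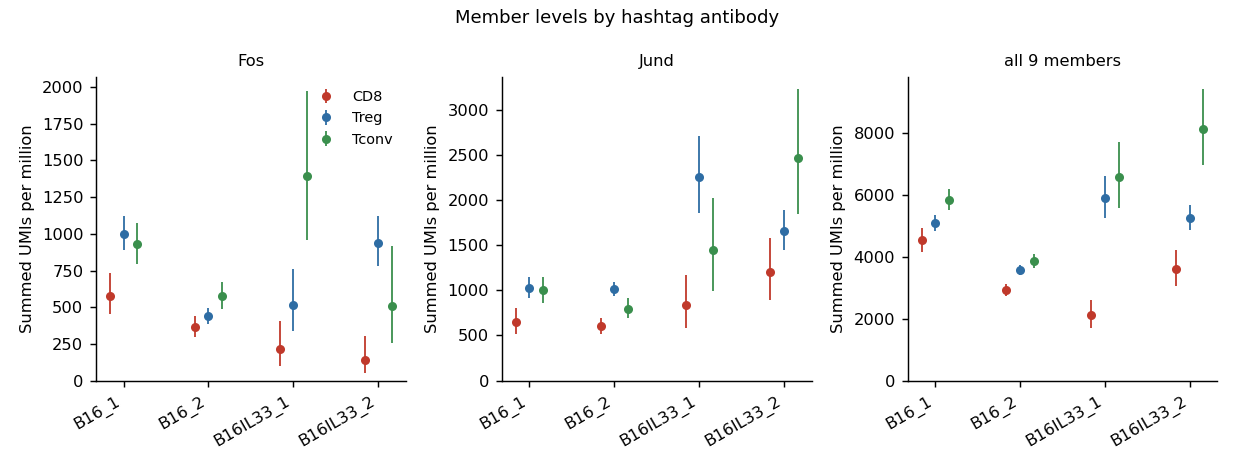
Summed CPM of Fos, Jund and all 9 genes (linear axes from 0, 95% counting intervals) for each hashtag antibody in CD8+ T cells, Treg and Tconv. Jund is higher with both IL-33 tags than with both B16 tags in each lineage (2250 and 1658 against 1021 and 1014 CPM in Treg). Over all depths, Fos in Treg differs more between the B16 tags (1001 and 439 CPM) than between tumors. Among Treg with 2000 to 4000 UMIs these Fos ratios were 1.38 and 1.46.

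Among CD8+ T cells, Fos, Jun and Fosb were lower in expanded clones. In 200 cells of clones seen at least 2 times, Fos was 199 (172 to 229.7) CPM against 427 (405 to 451) in 721 cells of clones seen 1 time, a ratio of 0.466 (0.399 to 0.543). Jun, at 0.561 (0.483 to 0.648), and Fosb, at 0.649 (0.502 to 0.831), made 3 members at least 1.5-fold lower, where 8.91% of 6282 genes were. Nr4a1, a reporter of antigen receptor signalling, was higher in expanded cells, at 191 against 137 CPM and a ratio of 1.40 (1.17 to 1.66), while Jund had 1.08 (0.996 to 1.17). The sum of the 9 had a ratio of 0.828 (0.794 to 0.863). Among cells with 2000 to 4000 UMIs the ratios were 0.496 (0.383 to 0.634) for Fos, 0.436 (0.324 to 0.578) for Jun, 1.53 (1.14 to 2.03) for Nr4a1 and 0.835 (0.714 to 0.973) for Jund, which was thus lower in expanded cells there. Myeloid markers stood at 638 CPM in expanded and 359 in single CD8+ T cells, and without cells holding 5 or more of their UMIs Fos had 0.477, Jun 0.562 and the sum 0.871. Heat shock genes stood at 7135 and 6246 CPM, and their part in these differences was not tested. Cells of 1 clone share their origin and are not replicates. Both tumors were pooled here. The paper reports more clonal expansion of CD8+ T cells in B16–IL-33 tumors, and only single clones among naive cells. Clone size, tumor and cell state therefore cannot be told apart in this comparison. In Treg no member passed 1.5-fold between 98 expanded and 1607 single cells, where 24.8% of 7678 genes did. Nr4a1 had the highest ratio, 1.30 (1.05 to 1.59), and the sum had 0.937 (0.889 to 0.988). In Tconv none did either among 63 and 1117 cells, against 31.4% of 6293 genes, and the sum had 1.01 (0.954 to 1.08). Myeloid markers stood at 701 against 401 CPM in expanded and single Treg and at 1432 against 389 in Tconv, and without the cells holding 5 or more of their UMIs the sums had 0.908 and 0.985. Among other alternatives the Tconv sum moved to 0.944 with ribosomal protein and mitochondrial genes left out of the CPM, 0.857 (0.779 to 0.941) among cells with 2000 to 4000 UMIs, 0.886 with CPM taken cell by cell and 1.19 with expanded clones of at least 3 cells. In that UMI range Dusp1 had 0.635 (0.412 to 0.938) in Tconv and Jun 0.630 (0.441 to 0.875) in Treg, both then past 1.5-fold lower.

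The 9 genes were found together in single cells more often than their separate shares give. Of the 36 pairs, all in CD8+ T cells, 34 in Treg and 35 in Tconv were seen together in at least as many thinned cells as independent detection within the class would give, with medians of 1.21, 1.10 and 1.12 times that number, where the median over pairs of all genes detected in at least 5% of cells was 1.00 in each class. Pairs at 1.5 times or more numbered 6 in CD8+ T cells, where 4.66% of pairs of all such genes were, 1 in Tconv, against 3.57%, and 0 in Treg, against 1.84%. A pair cannot exceed 1 divided by the larger of its 2 shares of cells, a cap that for frequent genes lies under 1.5. Jund and Junb were that frequent in Treg and Tconv, so their pairs could not be counted there. The 6 in CD8+ T cells were Fosb with Egr1 at 1.89 (1.27 to 2.71), Egr1 with Nr4a1 at 1.59 (1.06 to 2.28), Nr4a1 with Ier2 at 1.57, Fos with Fosb at 1.54 (1.26 to 1.88), Egr1 with Ier2 at 1.54 and Fosb with Dusp1 at 1.53. Fosb with Egr1 was also the highest pair in Tconv, at 1.53 (1.15 to 1.99), and in Treg, at 1.45 (1.07 to 1.92). At the other end, Jun with Jund stood at 1.02, 1.04 and 1.06 in CD8+ T cells, Treg and Tconv. Jun with Nr4a1 stood at 1.09, 0.974 and 0.980, and the 8 pairs with Jund stood at or under 1.18 in the 3 classes. The high share of cells with Jund limits how far these 8 pairs can rise.

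Counted per cell, members gathered at both ends of the distribution. At least 6 of the 9 were found in 9.30% (7.68 to 11.1%) of 1151 thinned CD8+ T cells, where independent detection would give 3.22%. In Treg the share was 10.4% against 5.60%, and in Tconv 13.5% against 7.32%. None of the 9 was found in 6.86% of CD8+ T cells, 2.41% of Treg and 2.42% of Tconv, against 1.55%, 0.608% and 0.501%. At least 3 were found in 59.3% (56.4 to 62.1%) of CD8+ T cells, 71.2% (69.2 to 73.1%) of Treg and 72.5% (70.1 to 74.8%) of Tconv. The tenth of CD8+ T cells with the most member UMIs, 116 cells, held 30.8% of those UMIs, with 26.0% in Treg and 27.5% in Tconv.

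The spread of each gene over cells of equal depth was wider than counting gives, where the variance of UMIs over their mean would be 1. For Fos this ratio was 3.70 in CD8+ T cells, 2.96 in Treg and 3.43 in Tconv, with up to 22 UMIs of the 1500 in a CD8+ T cell. For Egr1 it was 2.77, 1.59 and 2.39, the widest gap between the lineages among the 9 genes. Fosb, with 1.63, 1.41 and 1.78, and Ier2, with 1.73, 1.39 and 1.62, had the lowest ratios.

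**Figure D4:**
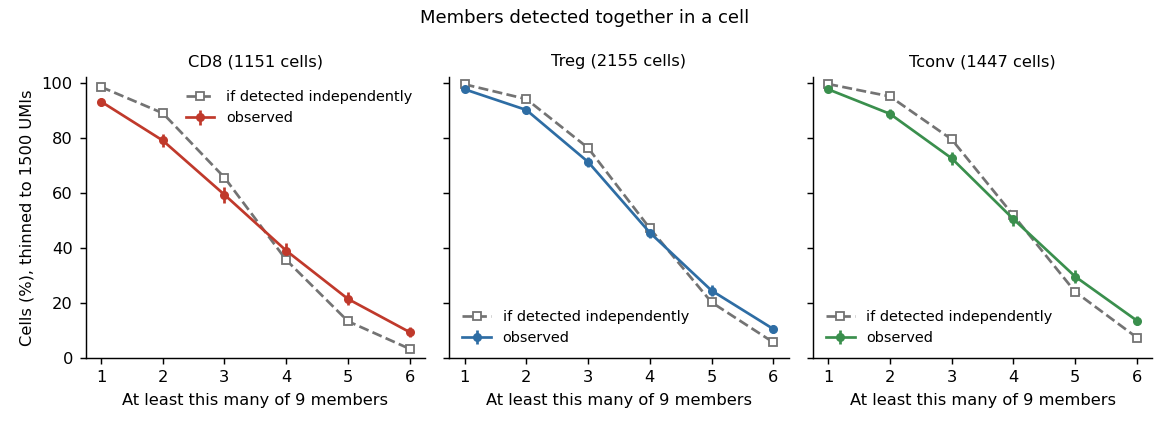
Percent of thinned cells (1500 UMIs each) in which at least the given number of the 9 genes was detected, with 95% counting intervals, beside the percent expected if the genes were detected independently in the class. The observed line falls below the expected at 3 members (59.3% against 65.5% in CD8+ T cells) and lies above it at 6 (9.30% against 3.22%).

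Of 2893 other genes, those whose UMIs closely followed the summed members across thinned cells included Klf2, a transcription factor of lymphocyte homing, with a mean Spearman correlation of 0.345 over the 3 lineages, Zfp36, which encodes an RNA-binding protein that destabilises cytokine transcripts, with 0.327, and Klf6, with 0.285. Nfkbia, the inhibitor of NF-kB, had 0.260 and Tnfaip3, another of its inhibitors, 0.233. Also among the highest were Btg1 with 0.230, the heat shock cochaperone Dnajb1 with 0.212, Pnrc1 with 0.208 and Ppp1r15a with 0.206. The median over all 2893 genes was 0.00148, and 90% of genes lay between -0.0552 and 0.0622. Each correlation was over 1151, 2155 and 1447 cells of equal depth that share 1 library, and it describes these cells without a test. The lowest 2 values, named after they were seen, belonged to genes of ribosomal proteins, Rpl41 with -0.188 and Rpsa with -0.184.

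The summed level of the 9 genes was lower in deeper cells in each of the 3 T cell lineages. In CD8+ T cells it went from 6261 CPM in cells with under 1500 UMIs over 5245 and 4236 to 2595 in cells with at least 5000, and in Treg from 7344 to 3565. In Tconv the ends were 6625 and 3777 CPM. In each of the 4 bins, CD8+ T cells held the least of the 3 lineages. Heat shock genes stood at 7038 CPM in the shallowest and 6583 in the deepest bin of CD8+ T cells.

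**Figure D5:**
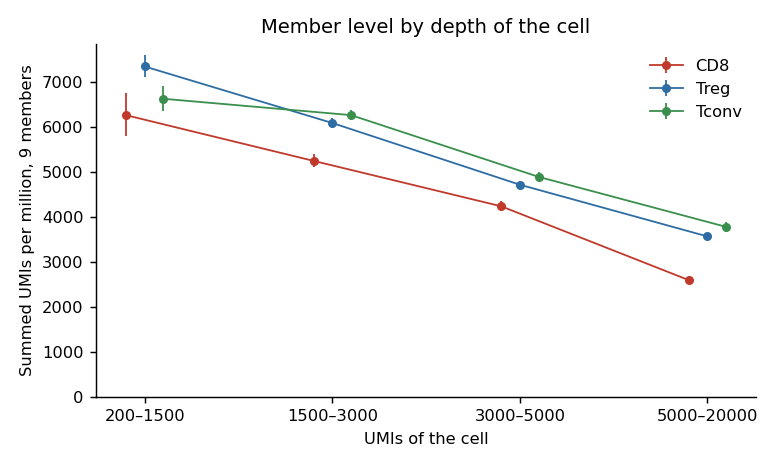
Summed CPM of the 9 genes by the total UMIs of the cell in CD8+ T cells, Treg and Tconv, with 95% counting intervals. The level is lower along the axis in each lineage, from 6261 to 2595 CPM in CD8+ T cells, from 7344 to 3565 in Treg and from 6625 to 3777 in Tconv.

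A list of 44 further immediate early, AP-1 and feedback genes was set beside the members, and its named genes are the extremes of each comparison. Between CD8+ T cells and Treg, 5 of 40 tested were at least 1.5-fold higher in CD8+ T cells and 13 lower, where 7.16% and 22.5% of all genes tested were. Nr4a2, a relative of Nr4a1, had 147 against 42.2 CPM, a ratio of 3.48, and Dusp6 and Dusp2, phosphatases like Dusp1, had ratios of 2.84 and 2.40. Dusp4, a further phosphatase of the family, had 20.0 against 88.1 CPM, a ratio of 0.227, with Zfp36l1 at 0.341 and Jdp2, a repressor that binds AP-1 sites, at 0.367. Between Tconv and Treg 8 of 40 were higher and 8 lower, where 5.82% and 12.6% of all genes were, with Dusp6 at 2.48, Egr2 at 1.93 and Zfp36l2 at 1.82, against Ier5l at 0.531, Dusp4 at 0.371 and Jdp2 at 0.369.

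In NKT cells, 6 of 36 listed genes were at least 1.5-fold higher than in Tconv and 9 lower, where 10.5% and 23.4% of all genes were. Klf4 had a ratio of 2.82, Atf3 of 2.73 and Ier3 of 2.06, while Klf2 had 0.361, Socs3 0.347 and Dusp4 0.108, the last from 1 UMI. In myeloid cells, 14 of 41 were higher than in T cells and 14 lower, where 16.9% and 45.5% of all genes were. Atf3, a bZIP factor of the stress response, had 1245 against 32.9 CPM, a ratio of 37.8, with Batf3 at 27.2 and Ier3 at 20.0, and Batf, the lymphocyte partner of JunB, had 32.4 against 202 CPM, a ratio of 0.16, with Cd69 at 0.163 and Myc at 0.194.

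Treg with Il1rl1 held more of 3 listed genes by 1.5-fold and less of 1, of 38, where 4.36% and 7.16% of all genes were that much higher and lower. Klf2 had 1009 against 599.6 CPM, a ratio of 1.68, Batf 379 against 234 CPM, a ratio of 1.62 and Myc a ratio of 1.52, against Klf4 at 0.541, Nr4a2 at 0.692 and Zfp36l2 at 0.725. By tag in Treg, 9 of 25 were higher with B16IL33 and 4 lower, where 9.94% and 13.15% of all genes were, with Klf2 at 2.05, Btg2 at 1.92 and Fosl2, a further Fos family gene, at 1.85, against Atf3 at 0.426, Dusp2 at 0.516 and Ier3 at 0.577. Atf3 and Ier3 rest on 5 and 7 UMIs in Treg with a B16IL33 tag, and their intervals held 1. The median ratio of the list was 1.15 by Il1rl1 and 1.31 by tag, beside 0.997 and 0.970 over all genes tested.

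In expanded CD8+ clones, 0 of 34 listed genes were at least 1.5-fold higher and 7 lower, where 5.70% and 8.91% of all genes were. Klf4 had a ratio of 0.178 from 3 UMIs, Socs3 of 0.330 and Zfp36l1 of 0.525, while Ier3 1.48, Dusp5 1.46 and Rgs1 1.39 had the highest. In expanded Treg 3 of 36 were higher and 5 lower, where 9.03% and 15.7% of all genes were, with Egr3, a factor of the Egr1 family, at 2.94, Klf4 at 2.34 and Nr4a2 at 2.04, against Srf at 0.371, Nr4a3 at 0.517 and Mafk at 0.588. In expanded Tconv 7 of 36 were higher and 5 lower, where 12.8% and 18.5% of all genes were, with Atf3 at 3.01, Dusp6 at 2.40 and Dusp2 at 2.10, against Myc at 0.228, Srf at 0.312 and Dusp10 at 0.617. Srf, Nr4a3 and Mafk rest on 5, 7 and 2 UMIs in expanded Treg, where the intervals of Nr4a3 and Mafk held 1. Egr3 and Klf4 rest on 10 UMIs each there. In expanded Tconv, Dusp6, Dusp10, Myc and Srf rest on 8, 7, 2 and 2 UMIs. Of these, Myc alone had an interval without 1. The Atf3 ratio rests on 18 UMIs in expanded Tconv, and Atf3 stood at 1245 CPM in myeloid cells. Myeloid markers were at 1432 CPM in expanded and 389 in single Tconv, and their part in the Atf3 ratio was not tested.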

How the data were processed

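Gene expression, hashtag and TCR libraries of 1 pool of tumor T cells were made with the 10x 5′ chemistry. The authors deposited raw UMI counts per gene and barcode, not normalized, on a mixed human and mouse reference. The submitters' processing notes name Cell Ranger 6.1.1 and mm10, while the matrix header names 3.1.0. From the counts, CPM was computed over all mouse UMIs of a class, with exact Poisson intervals, Clopper-Pearson intervals for shares and exact conditional binomial intervals for ratios (95%), in Python 3.11.15 with NumPy 2.4.6, SciPy 1.17.1, pandas 2.3.3 and Matplotlib 3.10.9. The ratio code was tested on simulated data. Kept barcodes had 200 to 2500 genes and under 5% mitochondrial UMIs. The gates were Cd8a and Cd8b1 over Cd4 and Foxp3 (CD8+ T cells), Foxp3 without Cd8 (Treg), Cd4 without Foxp3 or Cd8 (Tconv), Zbtb16 without Foxp3 or Cd8 (NKT) and Csf1r without Cd3e (myeloid). No doublet caller was run, and 428 kept barcodes with 2 or more productive beta chains were left out as an alternative. A gene was called at a ratio of 1.5 either way with at least 50 UMIs over both classes. Other named genes were the 3 highest and 3 lowest listed genes per comparison and the 10 most alike. Members, lists and rules were chosen with earlier results of these data known. Alternatives changed the gates, filters, thinning, scaling and clone definition. A comparison of subsets within each lineage, with its alternatives, and 1 of the 10 most alike genes are not reported here.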

Additional observations from a re-analysis of the deposited data

Results flagged for a closer look

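Of 30 sets of a gene and a contrast examined over the 3 lineages, 4 had counting intervals on opposite sides of 1, and in each the difference between lineages was not tested. Between the IL-33 and B16 tags, the ratio of Fos was 1.30 in Treg and 0.417 in CD8+ T cells. That of Junb was 1.27 in Treg, 1.90 in Tconv and 0.690 in CD8+ T cells, and the 9 genes summed had 1.33, 1.57 and 0.828. In CD8+ T cells the sum was 1.10 among cells with 2000 to 4000 UMIs and 1.23 with tags numbered 2 alone, and Junb was 1.17 and 1.08 there and 1.03 with CPM taken cell by cell, so that these values do not keep their side of 1. Fos by tag in Treg was 0.517 (0.332 to 0.773) with tags numbered 1 alone. It was 1.17 (0.925 to 1.46) without cells holding 5 or more myeloid marker UMIs. In CD8+ T cells Fos by tag was 0.531 (0.246 to 1.02) among cells with 2000 to 4000 UMIs. Between expanded and single clones, Ier2 had 1.35 (1.09 to 1.66) in Tconv and 0.755 (0.559 to 0.9997) in Treg. The Treg value rests on 51 UMIs in expanded cells, and its interval lies only just under 1.

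Signal was also present in barcodes that the filter removed. The 9 genes summed to 2782 CPM in 2203 barcodes with under 200 genes and to 4317 CPM in 1967 barcodes with 200 to 2500 genes but 5% or more mitochondrial UMIs. They summed to 2153 CPM in 766 barcodes with over 2500 genes and to 1855 CPM in 21 such barcodes with 5% or more mitochondrial UMIs, beside 5045 CPM in the kept cells. The human copies of the 9 genes, which the mixed reference also holds, had 6 UMIs in all, beside 8562 UMIs over all human genes.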

How the results depend on the processing

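Of 142 recomputed values of the summed ratios and shares, 95 stayed within the counting interval of the value reported, 46 moved out of it and 1 turned, that is, crossed 1 where the interval of the value reported did not hold 1. Of 1416 further values for single members, added comparisons and summed levels, 1100 stayed, 301 moved and 15 turned. A further 5 and 119 values crossed 1 where the reported interval held 1, and in 1 and 15 of them the recomputed interval no longer did, among them Jun between CD8+ T cells and Treg, at 1.23, and in expanded clones Jund in CD8+ T cells, at 0.835, and Dusp1 in Tconv, at 0.635, all among cells with 2000 to 4000 UMIs. Those of the first kind that moved, and all that turned, follow, and the cause was not tested for any of them. Ratios are of the 9 genes summed unless a member is named. With ribosomal protein and mitochondrial genes left out of the CPM, the values that moved were 0.853 (CD8+ T cells to Treg), 1.29 (NKT to Tconv), 1.20 (Tconv to Treg), 0.944 (expanded to single Tconv clones), 1.33 (myeloid to T cells). Among cells with 2000 to 4000 UMIs, chosen after the data were seen, the values that moved were 0.885 (CD8+ T cells to Treg), 1.28 (NKT to Tconv), 0.857 (expanded to single Tconv clones), 0.888 (expanded to single Treg clones), 1.92 (myeloid to T cells), and those that turned were 1.10 (IL-33 to B16 tag in CD8+ T cells), 1.17 (Junb, IL-33 to B16 tag in CD8+ T cells), 0.908 (Ier2, Tconv to CD8+ T cells), 0.935 (Fosb, myeloid to T cells). With clones defined by the beta chain, the value that moved was 0.860 (expanded to single Treg clones). With expanded clones of at least 3 cells, the values that moved were 0.794 (expanded to single CD8+ clones), 1.19 (expanded to single Tconv clones), 0.849 (expanded to single Treg clones), and those that turned were 1.05 (Fos, expanded to single Tconv clones), 0.826 (Nr4a1, expanded to single Treg clones). With lineage gates of at least 2 UMIs, the values that moved were 0.706 (CD8+ T cells to Treg), 1.29 (NKT to Tconv), 1.05 (Tconv to Treg), 54.5% (cells with at least 3 members in CD8+ T cells), 0.913 (expanded to single CD8+ clones), 1.90 (myeloid to T cells), and those that turned were 0.651 (Fos, NKT to Tconv), 1.24 (Fos, expanded to single Tconv clones), 1.04 (expanded to single Treg clones). With CPM taken cell by cell and then averaged, the values that moved were 0.784 (CD8+ T cells to Treg), 1.04 (Tconv to Treg), 1.43 (IL-33 to B16 tag in Treg), 0.886 (expanded to single Tconv clones), 1.46 (myeloid to T cells), and those that turned were 1.03 (Junb, IL-33 to B16 tag in CD8+ T cells), 0.992 (Ier2, Tconv to CD8+ T cells). With a mitochondrial limit of 10%, the value that moved was 0.870 (expanded to single CD8+ clones). With no upper limit on detected genes, the values that moved were 0.680 (CD8+ T cells to Treg), 1.04 (NKT to Tconv), 1.16 (Tconv to Treg), 1.53 (IL-33 to B16 tag in Treg), 53.0% (cells with at least 3 members in CD8+ T cells), 67.7% (cells with at least 3 members in Treg), 0.807 (expanded to single Treg clones), 1.23 (myeloid to T cells), and those that turned were 0.962 (Fos, NKT to Tconv), 0.786 (Nr4a1, myeloid to T cells). With tags numbered 1 alone, the value that moved was 1.16 (IL-33 to B16 tag in Treg), and the value that turned was 0.517 (Fos, IL-33 to B16 tag in Treg). With tags numbered 2 alone, the value that moved was 1.47 (IL-33 to B16 tag in Treg), and those that turned were 1.23 (IL-33 to B16 tag in CD8+ T cells), 1.08 (Junb, IL-33 to B16 tag in CD8+ T cells). With cells thinned to 1000 UMIs, the values that moved were 45.3% (cells with at least 3 members in CD8+ T cells), 56.9% (cells with at least 3 members in Tconv), 55.3% (cells with at least 3 members in Treg). With cells thinned to 2500 UMIs, the values that moved were 72.8% (cells with at least 3 members in CD8+ T cells), 84.7% (cells with at least 3 members in Tconv), 83.2% (cells with at least 3 members in Treg). Without barcodes with 2 or more productive beta chains, the values that moved were 0.766 (CD8+ T cells to Treg), 67.9% (cells with at least 3 members in Treg). Without cells with 5 or more myeloid marker UMIs, also chosen afterwards, the values that moved were 0.736 (CD8+ T cells to Treg), 0.871 (expanded to single CD8+ clones). No paired analysis was possible because no result comes from a test and what same-numbered tags share is not given, but the ratios within tag numbers 1 and 2 are those above. The tag comparisons rest on few cells, with 19 CD8+ T cells and 17 Tconv carrying an IL-33 tag.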
